A study of Mus musculus with 36 samples.

Results

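Runx1, Runx2, Runx3 and their shared partner gene Cbfb were described through the open chromatin regions nearest to them in sorted bone marrow stem and progenitor cells of young and aged mice. Merging every set of peaks from the 36 libraries that shared 1 bp or more gave 105005 regions, and each region was given to the gene whose protein-coding start site lay nearest to its centre. By this rule 135 of the 105005 regions belonged to the 4 genes, with 65 at Runx1, 39 at Runx2, 27 at Runx3 and 4 at Cbfb. A region was counted as called in a library that had at least 1 peak overlapping it, and its level there was the highest fold enrichment among those peaks, that is the read pileup at the summit over the local background as the peak caller gave it. A region that was not called had no peak above the caller's threshold, which is not the same as closed chromatin, and nearness to a start site does not show which gene a region acts on.

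RUNX proteins bind DNA through their Runt domain and do so firmly only together with CBFβ, the partner protein encoded by Cbfb, which itself does not touch DNA. Runx1 is required for the first blood stem cells to form in the embryo and acts later in megakaryocytes and lymphocytes, Runx2 is best known as the master regulator of bone-forming cells, and Runx3 acts in cytotoxic T cells, NK cells and myeloid cells. Each Runx gene is read from a distal promoter, P1, and a proximal promoter, P2, that lies inside the gene, and Runx1 carries a known haematopoietic enhancer in its first intron, about 23 kb downstream of P1.

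The assay for transposase-accessible chromatin (ATAC-seq) was run on 20000 freshly sorted C57BL/6 cells per library, size-selected to 240 to 360 bp and sequenced as single reads of 60 bp. Young mice were 10 weeks old and aged mice 20 months old, and the labels name no transgene and no treatment. Haematopoietic stem cells (HSCs) had 4 libraries per age, and 4 fractions of multipotent progenitors (MPP1s to MPP4s), the granulocyte-macrophage progenitors (GMPs), the megakaryocyte-erythrocyte progenitors (MEPs) and the common lymphoid progenitors (CLPs) had 2 libraries per age each. The study describes marrow pooled by age before sorting and calls the libraries biological replicates. Whether they come from separate animals is thus not given, and p-values measure the spread between libraries, which may be technical. Among Sca-1+ c-kit+ cells without lineage markers, HSCs carried CD150 but not CD34, CD48 or Flt3. In the same Sca-1+ c-kit+ cells MPP1s carried CD34 and CD150, MPP2s CD34, CD150 and CD48, MPP3s CD34 and CD48, and MPP4s Flt3 besides CD34 and CD48. The Sca-1- c-kit+ cells were divided into GMPs with CD34 and FcgR and MEPs with neither, and CLPs, written IL-7+ in the labels, were stained for the IL-7 receptor and had low Sca-1 and c-kit.

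The fractions differed in how many peaks were called, which bears on every count below. MEP libraries held 9581 to 11041 peaks, GMP libraries 52576 to 63288 and the remaining libraries 27087 to 40157, although the study had reduced all libraries to an equal number of reads. At the 5335 regions called in every library the median fold enrichment was 7.52 to 7.77 in MEPs, 18.5 to 20.3 in GMPs and 11.6 to 15.5 elsewhere, and the 5th percentile of fold enrichment over all called regions was 4.50 to 5.37 per library. Markers backed the GMP label, since the regions at Mpo, Elane and Cebpe were called in 4, 4 and 3 of the 4 GMP libraries. The erythroid markers did not back the MEP label: the regions nearest Gata1 and Klf1 were each called in 1 of 4 MEP libraries, and the Klf1 region was called in all 32 libraries of the other fractions. That of Epor was called in all 4 MEP libraries but also in all HSC, MPP and GMP libraries. At Il7r the region was called in all 4 CLP libraries and also in all 4 MPP4 and GMP libraries, and no region lay nearest to Rag1. Dntt and Ebf1 were called in 3 CLP libraries each, but also in all 8 HSC and all 4 GMP libraries. Hlf was called in all 8 HSC libraries and in all 4 libraries of each other fraction but MEPs, Procr in 4 HSC, 2 MPP3 and 3 GMP libraries, and Mecom in 0 HSC but 3 MPP4, 3 GMP, 2 MPP3, 2 CLP and 1 MPP2 libraries, so these regions did not set HSCs or CLPs apart. Young HSC replicate 3 deviated from its group together with aged replicates 3 and 4 and against aged replicates 1 and 2. Young HSC replicate 4 went the other way, with r of 0.108 and 0.0273 to aged replicates 1 and 2 and -0.0493 and -0.0894 to aged replicates 3 and 4. The age counts in HSCs are also given within replicates 1 and 2 and within replicates 3 and 4. This split follows the replicate numbers and does not make matched sets. The word new stood in the peak names of 9 of 18 aged and 2 of 18 young libraries, and what it marks is not given.

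The sequences below carry the patterns described further on. Each of the first 7 is 201 bases around the median summit of a region, read from the plus strand of mm10 (GRCm38), and capitals mark any of 6 short words on either strand. The word TGTGGT, bound by RUNX proteins, was found in windows of this length in 25.6% of 104825 regions on the assembled chromosomes. The ETS word AGGAAG was found in 44.7% of them and the GATA word AGATAA in 10.3% of them. The CEBP word TTGCNNAA was found in 13.2%, the AP-1 word TGANTCA in 11.3% and the E-box word CAGCTG in 14.6% of these regions. A word is a match of letters and not a shown binding site. The region in the first intron of Runx1, 24.3 kb downstream of P1, is shown because it was called in every library (chr16:92801682-92801882), and it held none of these words.
Runx1 +24.3 kb: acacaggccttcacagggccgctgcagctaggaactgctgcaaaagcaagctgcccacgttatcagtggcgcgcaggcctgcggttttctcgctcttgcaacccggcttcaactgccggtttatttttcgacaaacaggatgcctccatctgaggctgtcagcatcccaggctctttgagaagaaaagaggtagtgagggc
The intergenic region 371.3 kb upstream of Runx1 P1 is shown for its calls in HSCs and MPP1s to MPP3s alone (chr16:93197437-93197637). It held 1 RUNX, 1 ETS, 2 GATA and 1 AP-1 word.
Runx1 -371.3 kb: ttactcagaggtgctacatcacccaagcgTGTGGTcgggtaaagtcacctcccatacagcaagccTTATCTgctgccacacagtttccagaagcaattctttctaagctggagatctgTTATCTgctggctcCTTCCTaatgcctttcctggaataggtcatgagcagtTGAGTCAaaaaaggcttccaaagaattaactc
The intergenic region 58.0 kb upstream of Runx1 P1 separated young from aged HSC libraries (chr16:92884030-92884230) and held 2 ETS words.
Runx1 -58.0 kb: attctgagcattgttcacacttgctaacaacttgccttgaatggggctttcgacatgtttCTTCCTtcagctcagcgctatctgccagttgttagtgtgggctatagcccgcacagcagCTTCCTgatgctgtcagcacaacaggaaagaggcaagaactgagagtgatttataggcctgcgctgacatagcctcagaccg
An intronic region of Runx1, 20.3 kb downstream of its last annotated start site, was called in GMPs alone (chr16:92675792-92675992) and held 1 ETS and 1 AP-1 word.
Runx1 +20.3 kb: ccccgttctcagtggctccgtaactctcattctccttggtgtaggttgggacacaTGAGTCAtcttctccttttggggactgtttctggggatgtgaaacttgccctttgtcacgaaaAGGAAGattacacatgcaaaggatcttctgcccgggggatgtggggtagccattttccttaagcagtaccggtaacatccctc
The region in an intron of Runx2, 80.9 kb downstream of P2 (chr17:44654618-44654818), held 2 ETS words and 1 AP-1 word. It had the highest mean level of that gene in every fraction but MEPs, which did not call it.
Runx2 +80.9 kb: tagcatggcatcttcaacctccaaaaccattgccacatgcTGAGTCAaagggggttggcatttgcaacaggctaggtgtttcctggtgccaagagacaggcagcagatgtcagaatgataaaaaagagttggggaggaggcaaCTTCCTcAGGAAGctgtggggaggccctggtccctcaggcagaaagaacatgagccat
The region 40.5 kb downstream of Runx3 P2 had the smallest p of the 108 tested in the comparison of fractions (chr4:135192914-135193114), with 1 RUNX word and 1 E-box.
Runx3 +40.5 kb: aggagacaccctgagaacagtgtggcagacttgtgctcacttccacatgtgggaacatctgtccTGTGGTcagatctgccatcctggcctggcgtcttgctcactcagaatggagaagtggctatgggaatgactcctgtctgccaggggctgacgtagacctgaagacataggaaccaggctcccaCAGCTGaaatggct
The intronic region of Runx3 10.7 kb downstream of P1 was called in CLPs alone (chr4:135131223-135131423) and held 2 RUNX words.
Runx3 +10.7 kb: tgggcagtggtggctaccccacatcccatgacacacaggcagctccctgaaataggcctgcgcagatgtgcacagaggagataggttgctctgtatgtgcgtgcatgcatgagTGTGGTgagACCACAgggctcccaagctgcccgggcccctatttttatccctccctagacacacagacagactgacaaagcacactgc
The promoters of Runx3 and Cbfb are shown by the 150 bases just upstream of their start site, on the plus strand of mm10 (GRCm38) and in the direction of transcription, since their regions behaved differently. Runx3 P1 (chr4:135120502-135120651) held 2 RUNX words, which 0.581% of the 41445 protein-coding start sites had in such a stretch, while 7.42% had at least 1.
Runx3 P1 upstream: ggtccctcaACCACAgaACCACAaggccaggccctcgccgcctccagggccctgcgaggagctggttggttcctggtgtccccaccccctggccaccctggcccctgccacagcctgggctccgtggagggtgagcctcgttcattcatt
Runx3 P2 (chr4:135152346-135152495) and Cbfb (chr8:105170524-105170673) held none of the 6 words. Both were richer in CpG, with 22 and 19 CpG dinucleotides against 5 upstream of Runx3 P1, and had a GC content of 78% and 72.7% against 68%.
Runx3 P2 upstream: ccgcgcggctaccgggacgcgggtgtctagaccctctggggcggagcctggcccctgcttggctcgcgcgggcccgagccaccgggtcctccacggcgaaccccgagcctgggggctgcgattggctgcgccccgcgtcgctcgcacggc
Cbfb upstream: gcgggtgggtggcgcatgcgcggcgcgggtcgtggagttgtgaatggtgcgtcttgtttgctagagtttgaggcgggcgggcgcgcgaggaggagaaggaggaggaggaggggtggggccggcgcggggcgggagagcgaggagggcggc

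Open regions of the Runx genes were most often called in GMPs and least often in MEPs, as were the regions of the whole catalogue. Runx3 also stood out for the step from HSCs to MPPs. At Runx1, HSC libraries called 12.6 ± 1.41 of the 65 regions (SD, n = 8), MPP fractions between 14.5 ± 1.91 and 17 ± 4.24 (n = 4 each), CLPs 16 ± 4.24, GMPs 38.8 ± 2.99 and MEPs 5 ± 1.41. At Runx2, HSC libraries called 6.5 ± 2.39 of 39 regions, MPP fractions 8 to 9 on average, CLPs 4.75 ± 0.957, GMPs 24.8 ± 1.71 and every MEP library exactly 1. At Runx3 the average rose from 7 ± 1.69 of 27 regions in HSCs over 11 ± 1.41 in MPP1s, 11.8 ± 2.5 in MPP2s and 13.5 ± 1.29 in MPP3s to 15 ± 1.41 in MPP4s. CLPs called 14 ± 0.816 Runx3 regions, GMPs 20.2 ± 1.71 and MEPs 1.5 on average. The ranges of HSC libraries (5 to 10 regions) and MPP4 libraries (14 to 17) did not overlap at Runx3.

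These counts have to be read beside the whole catalogue, in which the same libraries called 29.5% of regions in HSCs, 29.6% to 33.2% in MPPs, 54.8% in GMPs, 9.35% in MEPs and 29% in CLPs. Runx1 lay below that share in HSCs, with 19.4%, and Runx2 lower still, with 16.7%. In GMPs Runx1 had 59.6% and Runx2 63.5%, and in MEPs they had 7.69% and 2.56%. Highest calls in GMPs and lowest in MEPs were thus shared with all regions and not particular to these 2 genes. Runx3 lay below it in HSCs, with 25.9%, and above it in MPP4s, with 55.6%, in CLPs, with 51.9%, and in GMPs, with 75%. When only the 9581 strongest peaks of each library were kept, 33 of the 135 regions were left. Of the regions described below, those at both Runx2 promoters and Runx3 P2, those 20.3 kb downstream of the last Runx1 start site and 303.5 and 381.7 kb upstream of Runx1 P1, those 62.7 kb downstream of Runx2 P2 and 305.2 kb upstream of Runx2 P1, and that 17.5 kb upstream of Cbfb were then called in no library. The same held for the regions 1.6 kb upstream and 45.1 kb downstream of Runx2 P2 and for the intronic regions of Cbfb. Runx1 then differed little between fractions, with 3.25 to 5.5 regions per library on average, GMPs at 5.5 and MEPs at 5. The lead of GMPs at Runx2 was gone, with 2.12 regions in HSCs, 1.75 in GMPs and MPP4s, 1.5 in MPP2s, 1 in MPP1s, MPP3s and CLPs and 0.75 in MEPs. Runx3 still had its lowest values in HSCs and MPP1s, but CLPs in place of GMPs had the highest, with 1.12 regions in HSCs, 1.25 in MPP1s, 1.75 in MPP2s, 3.75 in MPP3s, 3.5 in MPP4s, 5.75 in GMPs and 6.25 in CLPs, while MEPs had 1.5. No test was made on these counts, because the regions of a gene share their libraries.

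**Figure D1:**
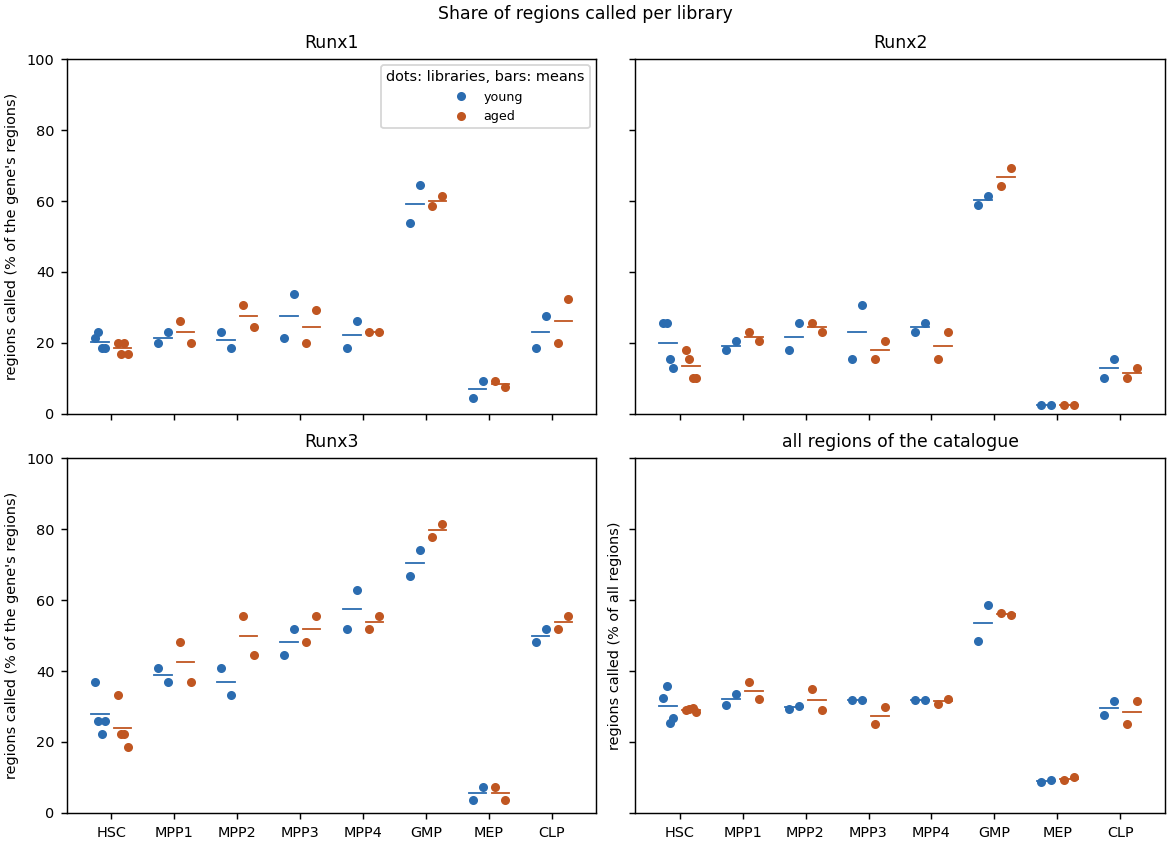
Percent of regions called in each library (y axis) by fraction (x axis) for Runx1, Runx2, Runx3 and all regions, with young libraries as blue dots, aged libraries as orange dots and bars for the means. GMPs are highest and MEPs lowest in all 4 panels, and in the Runx3 panel MPP4s and CLPs lie above HSCs, with means of 55.6% and 51.9% against 25.9%.

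Sorted by where they were called, GMP-only regions were the most frequent class with a fraction attached. A fraction was taken to have a region when at least 4 of the 8 HSC libraries or 2 of the 4 libraries of another fraction called it. Of the 135 regions, 37 were found in GMPs alone (27.4%, against 22.5% of all regions), 17 at Runx1, 14 at Runx2 and 6 at Runx3. A further 12 were found in all fractions but MEPs (8.89% against 9.12%), 6 in all 8 fractions (4.44% against 7.87%), 8 in HSCs or MPPs alone (5.93% against 10.8%), 2 in CLPs alone (1.48% against 2.36%) and 0 in MEPs alone (0.982% of all regions). Another 5 were shared by GMPs, MEPs or CLPs without HSCs and MPPs (3.70% against 2.67%), 29 had other combinations (21.5% against 18.2%), and 36 were found in no fraction by this measure (26.7% against 25.5%). Of the 135 regions 24 were called in 1 library only (17.8% against 18.4%). The median Runx3 region was called in 12 libraries, against 4 at Runx1, 4 at Runx2 and 5 over all regions.

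**Figure D2:**
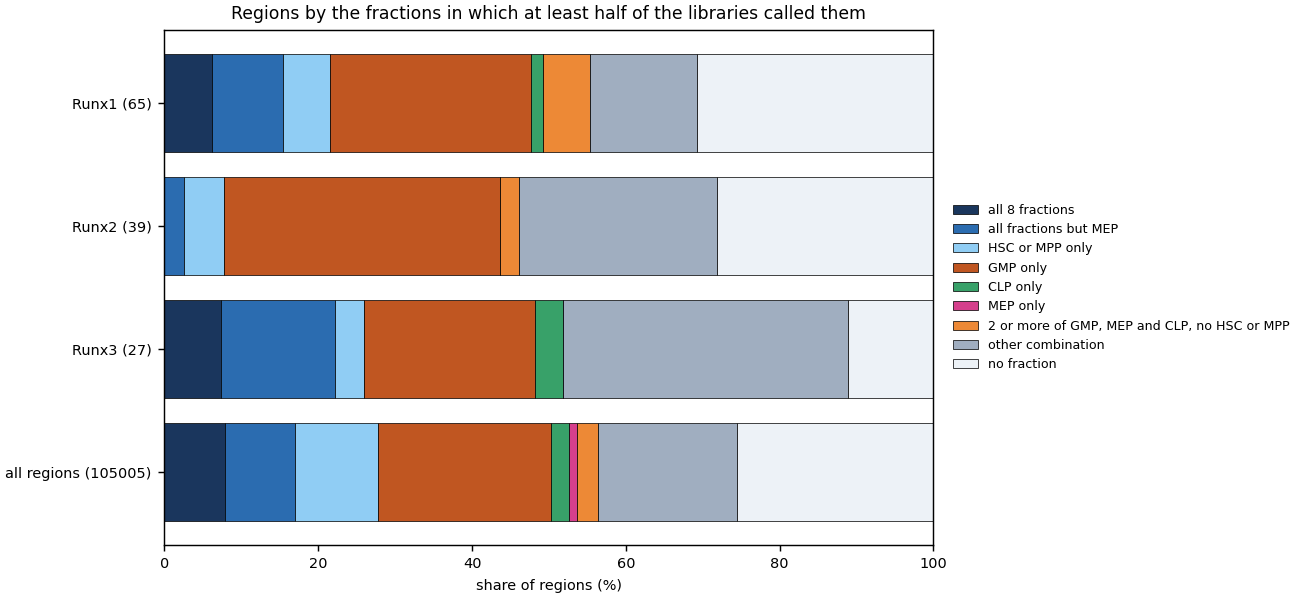
Share of regions (x axis, percent) in each class of fractions for Runx1, Runx2, Runx3 and all regions (y axis), drawn as stacked bars. GMP-only regions make up 17 of the 65 Runx1, 14 of the 39 Runx2 and 6 of the 27 Runx3 regions, and no bar of a Runx gene holds an MEP-only part.

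Whether calls of a region differed between the 8 fractions was tested by an exact permutation test of the fraction labels with Benjamini-Hochberg adjustment over all regions. It could be applied to 108 of the 135 regions, and 77 of them passed an adjusted p of 0.05 (71.3%, against 66.9% of 79066 regions tested). Without MEPs 59 of 100 passed (55.1% of all), and at an equal number of peaks 19 of 28 (56% of all). The share of 71.3% lay near its background and is no result about the Runx genes as a group, so the regions are described by themselves below. Of regions called in every library of 1 fraction and in at most 1 library outside it, 19 belonged to GMPs (14.1%, against 10.9% of all 105005 regions), 1 to CLPs (0.741% against 0.669%) and 0 to any other fraction.

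**Figure D3:**
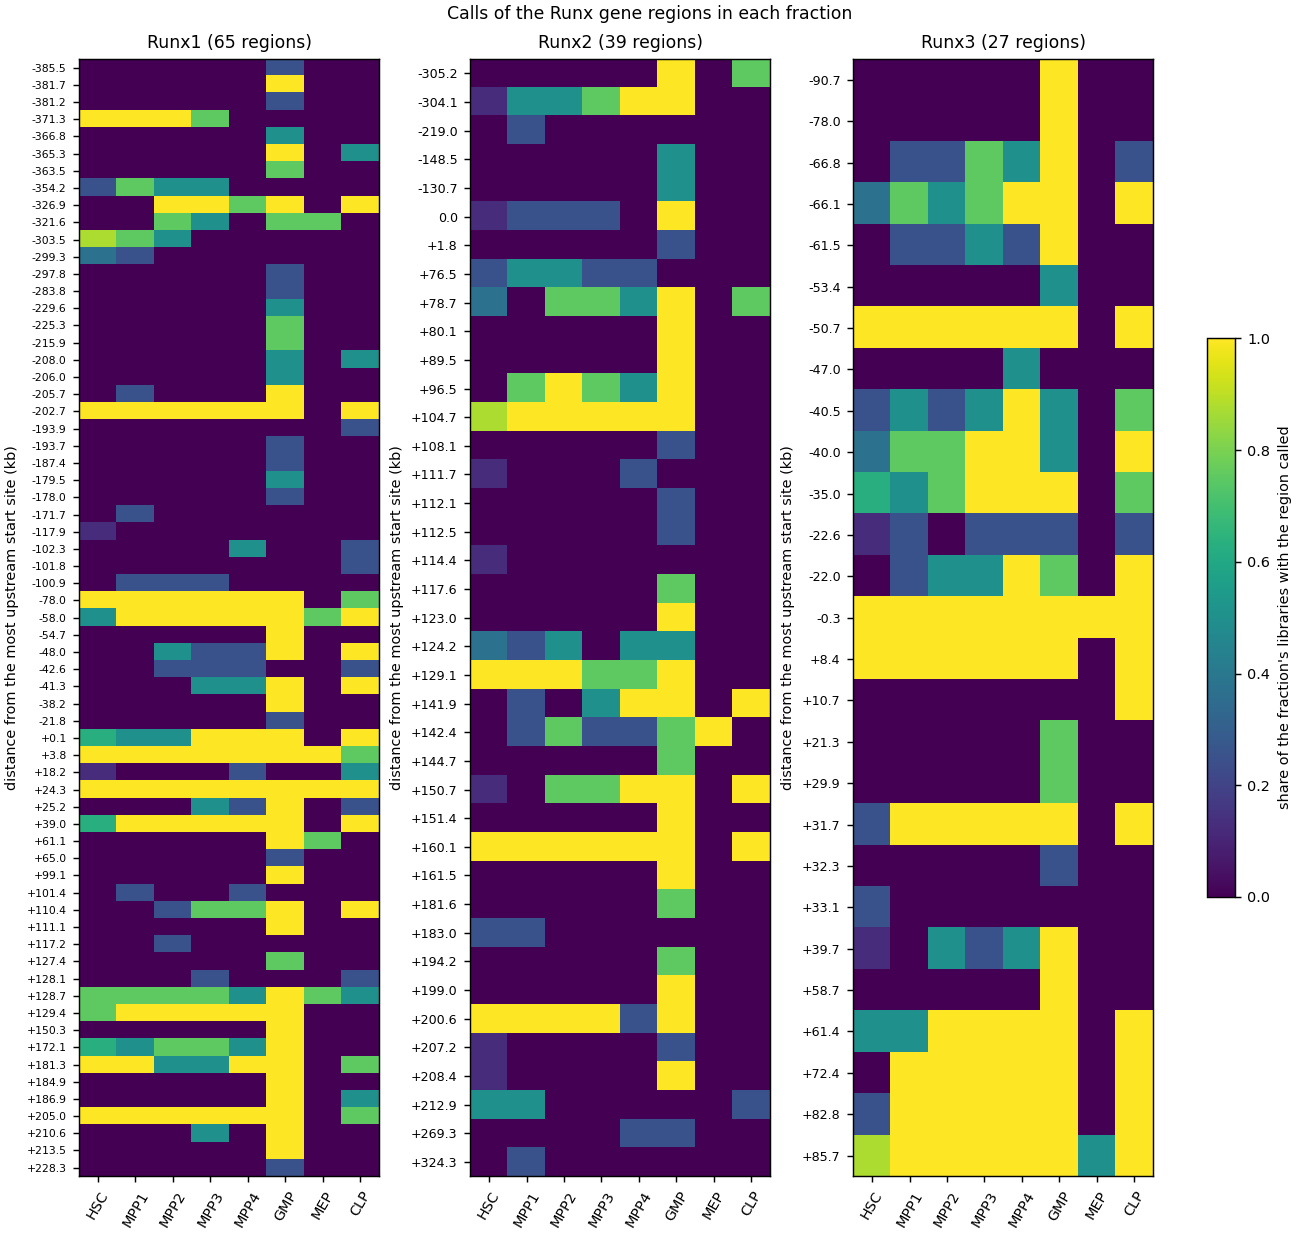
Heat map of the regions of Runx1, Runx2 and Runx3 (rows, by distance in kb from the gene's most upstream start site) over the 8 fractions (columns), coloured by the share of the fraction's libraries that called the region. The GMP column is filled most often and the MEP column least, with means of 38.8 and 5 of the 65 Runx1 regions.

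The Runx1 locus spread its regions from 385.5 kb upstream of P1 to 98.2 kb downstream of the last start site, and 40 of the 65 were intergenic, 21 intronic and 4 at promoters. Runx1 (ENSMUSG00000022952.17) lies on the minus strand of chromosome 16, with P1 at 92826149, P2 at 92697328 and a further start site at 92696125. The intronic enhancer place was marked by the region chr16:92801510-92802108, 24.3 kb downstream of P1, which was called in all 36 libraries. Its fold enrichment in young HSCs was 24.3, 23.5, 24.7 and 18.1 and in aged HSCs 21.4, 21.7, 26.7 and 22.6. GMPs were at the same height, with 23.1 and 25.6 in young and 22.6 and 23.5 in aged libraries. The 16 MPP libraries ranged from 17.9 to 25.1, all within or just below the range of HSCs. CLPs, at 10.9 and 12.5 in young and 10 and 9.97 in aged libraries, and MEPs, at 8.01, 7.8, 11.1 and 8.31, lay below all other libraries without overlap. Set against the median of the same library over regions called everywhere, the level was 1.79 ± 0.149 in HSCs, 1.67 ± 0.156 in MPP1s, 1.24 ± 0.0952 in GMPs, 1.15 ± 0.198 in MEPs and 0.815 ± 0.101 in CLPs. CLPs were thus the fraction in which this enhancer place was lowest for the library. MEPs also stayed below HSCs on this scale without overlap, at 1.04 to 1.45 against 1.56 to 2.00. On log2 fold enrichment centred per library, the limma F test over fractions gave an adjusted p of 1.76e-09 for this region, and both of the 2 member regions that could be tested passed (67% of 5335 regions did).

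At the Runx1 promoters the distal and proximal start sites had different profiles. The P1 region (chr16:92825808-92826339) was called in 25 libraries. It reached 17, 13.2, 14.3 and 14.5 in GMPs and 11.9, 14.3, 13.2 and 14.2 in CLPs. MPP3s had 8.14, 9.19, 7.58 and 10.4, and MPP4s 7.65, 11.4, 9.51 and 9.84. It was called in 5 of 8 HSC libraries, at 5.58 to 8.01, in 2 MPP1 and 2 MPP2 libraries and in no MEP library. The myeloid and lymphoid side of the tree therefore had the higher P1 values, and the adjusted p by fraction was 0.0163 by the exact test, or 0.267 without MEPs. The P2 region (chr16:92697253-92697703) was called in 26 libraries spread over all 8 fractions, including 3 MEP libraries at 5.17 to 6.51, and its calls passed no test there (adjusted p = 0.924 by the exact test). At an equal number of peaks its calls did differ (adjusted p = 0.0225 by the exact test), with 3 MEP libraries, 1 GMP library and no other calling it. In GMPs it stood at 13.3, 11.6, 18.7 and 13.5, above every other library, which reached at most 8.72. Set against the library's own median, GMPs, at 0.61 to 0.923, overlapped with the MEP libraries that called it, at 0.665 to 0.866, with HSCs, at 0.315 to 0.627, and with MPP2s, at 0.38 to 0.681. A neighbouring promoter region 0.5 kb inside P2 (chr16:92696625-92696959), near the last start site, was called in 6 HSC, all 16 MPP and all 4 GMP libraries and in no MEP or CLP library. Its levels were 5.69 to 9.49 in HSCs, up to 11.7 in MPP4s and 4.04 to 6.07 in GMPs, so that here GMPs had the lowest mean among the fractions with calls. Its calls differed between fractions (adjusted p = 0.000307 by the exact test), though not at an equal number of peaks (0.682).

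A pattern led by HSCs or MPP1s appeared at the far end of the Runx1 upstream domain and, MEPs aside, inside the gene. The region 371.3 kb upstream of P1 (chr16:93197264-93197683) was called in all 8 HSC libraries, at 15.3, 15.4, 11.8 and 10.7 in young and 16.6, 17.9, 11.8 and 14 in aged mice. MPP1s had 7.04, 10.2, 14 and 12.7 and MPP2s 6.99, 9.07, 9.25 and 6.79. MPP3s had it in 3 of 4 libraries, at 6.95 to 8.97, and it was called in 0 of 16 MPP4, GMP, MEP and CLP libraries. Mean levels were thus 14.2 in HSCs and 11 in MPP1s but alike in MPP2s and MPP3s, at 8.02 and 8.12, and calls differed between fractions with an adjusted p of 1.39e-05 (exact test). The region 303.5 kb upstream (chr16:93129549-93129847) followed it, with 7 HSC, 3 MPP1 and 2 MPP2 libraries at 5.22 to 9.68 and none elsewhere (adjusted p = 0.00072, exact test). Inside the gene, 3.8 kb downstream of P1 (chr16:92821966-92822706), a region called in 35 libraries had 9.05 to 11.6 in HSCs, 11.6 to 16 in MPP1s, 10.7 to 13.5 in MPP2s, 7.53 to 9.96 in MPP3s, 4.93 to 7.46 in MPP4s, 4.67 to 7.16 in GMPs, 4.6 to 7.24 in MEPs and 4.37 to 5.74 in the 3 CLP libraries that had it. In fold enrichment as given, HSCs, MPP1s and MPP2s did not overlap with MPP4s, GMPs, MEPs or CLPs at this region, although GMP libraries had the highest levels over all regions. MEP libraries had the lowest levels over all regions, so their low values here do not set them apart from HSCs. Being nearly always called, it had no test of its calls. At an equal number of peaks, which leaves the smallest MEP library whole, it was called in 7 HSC, 4 MPP1, 4 MPP2, 3 MPP3 and 4 MEP libraries and in 0 of 12 MPP4, GMP and CLP libraries.

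The opposite pattern was found 326.9 kb upstream of P1 (chr16:93152734-93153412). No HSC or MPP1 library called that region. It stood at 6.93 to 13.9 in MPP2s, 5.81 to 11.1 in MPP3s, 11.9 to 15.1 in GMPs and 9.78 to 14.2 in CLPs, and in 3 of 4 MPP4 libraries (adjusted p = 1.39e-05 by the exact test, 0.0948 at an equal number of peaks). Regions 41.3 kb upstream of P1 and 18.4 kb upstream of P2 were likewise absent from the calls of HSCs and MPP1s. The first reached 20.4, 19, 18.1 and 21.7 in GMPs and 8.02 to 11.5 in CLPs, and the second 19.5, 21, 23.3 and 21.4 in GMPs and 5.06 to 9.55 in CLPs (adjusted p = 0.000254 and 0.000259, exact test). GMPs alone called the intronic region 20.3 kb downstream of the last start site (chr16:92675597-92676006), at 15.7, 18.8, 18.1 and 17.7, and the intergenic region 381.7 kb upstream (chr16:93207774-93208007), at 18.7, 19.1, 13.5 and 14, each with an adjusted p of 0.000422 by the exact test. The intronic region 61.1 kb downstream of P1 (chr16:92764862-92765255) was found in GMPs, at 10.4 to 12, and in 3 of 4 MEP libraries, at 4.91 to 6.99, and nowhere else (adjusted p = 0.000254, exact test). With all peaks it was the single Runx1 region called in MEPs and in no HSC or MPP library. At an equal number of peaks 3 MEP libraries alone called it, and the same held for the region 321.6 kb upstream of P1, which with all peaks was also called in 3 MPP2, 2 MPP3 and 3 GMP libraries.

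Runx2 (ENSMUSG00000039153.16), on the minus strand of chromosome 17, held 31 of its 39 regions in introns, 30 of the 39 inside its own gene and 5 in introns of the neighbouring gene Supt3. Its promoters were weak. The P1 region (chr17:44814576-44815115) was called in all 4 GMP libraries, at 8.39, 9.52, 6.12 and 6.25, and in 4 scattered others (adjusted p = 0.021, exact test). The P2 region (chr17:44735571-44736656) never exceeded 6.38 in the 18 libraries that called it (adjusted p = 0.0426 by the exact test, 0.154 without MEPs). Both promoters thus had low levels in these cells, and peaks with a −log10 q of at least 10 left no difference in calls at either (adjusted p = 0.424 and 0.0827).

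In contrast to its promoters, an intronic region of Runx2 80.9 kb downstream of P2 (chr17:44654406-44655041) was among the strongest of all 135. Young HSCs had 17.3, 20.2, 15.5 and 15.5, and aged HSCs 13.6, 17.4, 14.9 and 10.8. The 16 MPP libraries lay at 15.6 to 23.6, GMPs at 20.4, 25.6, 19.7 and 24.3, and CLPs at 15.6, 15.5, 15.3 and 18.1. It was called in every library but those of MEPs, where 0 of 4 had it (adjusted p = 0.000422, exact test), and at an equal number of peaks 31 libraries, none of MEPs, had it. Regions deeper in the gene divided the fractions further. At 121.4 kb downstream of P2 (chr17:44613923-44614498) young HSCs had 10.9, 12.4, 13.2 and 13.9 and aged HSCs 10.8, 10.1, 11.4 and 8.7, MPP1s to MPP3s 5.24 to 11.2 and GMPs 14.8 to 16.5. MPP4s called that region in 1 library and CLPs and MEPs in none (adjusted p = 2.52e-05 by the exact test, 0.0515 at an equal number of peaks). The region 25.6 kb downstream had 7 of 8 HSC, all 16 MPP and all 4 GMP libraries, the last at 18.7 to 23.1, and no CLP or MEP library (adjusted p = 0.000107 by the exact test, 0.0915 at an equal number of peaks). With all peaks both were thus called in stem cells and GMPs and not in CLPs. At an equal number of peaks the first was called in 4 HSC libraries and in no GMP library, and the second in 4 HSC and 3 GMP libraries.

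Besides the region 80.9 kb downstream of P2, which CLPs shared with HSCs, CLP libraries called Runx2 regions that few or no HSC libraries had. The region 62.7 kb downstream of P2 (chr17:44672752-44673123) was called in all GMP libraries, at 13.6 to 16, in all MPP4 libraries, at 6.76 to 10.3, in all CLP libraries, at 5.83 to 9.23, and in no HSC library (adjusted p = 6.48e-05, exact test). The region 71.5 kb downstream (chr17:44663886-44664309) was likewise called in all GMP libraries, at 13.2 to 18.5, all MPP4 libraries, at 12.7 to 14.9, and all CLP libraries, at 8.47 to 10.6, and in 1 of 8 HSC libraries (adjusted p = 0.000303, exact test), though at an equal number of peaks in 2 MPP4 libraries alone. A region 63.3 kb downstream (chr17:44672070-44672683) was the single Runx2 region called in MEPs, in all 4 libraries at 4.9 to 7.38. With all peaks it was also called in 3 GMP and 3 MPP2 libraries, in 1 library each of MPP1s, MPP3s and MPP4s, and in no HSC or CLP library. At an equal number of peaks 3 MEP libraries alone called it. Far upstream, 305.2 kb from P1, an intergenic region stood at 10.5 to 15.4 in GMPs and was called in 3 CLP libraries (adjusted p = 0.000254, exact test).

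Runx3 (ENSMUSG00000070691.10), on the plus strand of chromosome 4, differed from the other Runx genes in having a P1 promoter that was open everywhere. The P1 region (chr4:135120082-135120678) was called in all 36 libraries. HSCs had 22.5, 27.4, 16.2 and 19.4 in young and 20.2, 20, 22.7 and 21 in aged mice. GMPs had 29.5, 27.1, 29.7 and 28.6, CLPs 18.2, 19, 17.5 and 13.8, and MEPs 11.1, 8.79, 11.5 and 8.5. GMPs lay highest and MEPs lowest, but set against the library's own median the fractions were closer, from 1.29 ± 0.23 in CLPs and 1.31 ± 0.206 in MEPs over 1.5 ± 0.0739 in GMPs to 1.66 ± 0.188 in HSCs. The limma F test gave an adjusted p of 0.0332, which did not hold under quantile normalization (0.0746) or without any 1 of 7 libraries, namely young HSC replicates 1 and 2, aged HSC replicates 2, 3 and 4, and the second MEP replicate of either age (0.0506 to 0.0743). The P2 region (chr4:135152089-135152705) was low, at 4.45 to 8.86. It was called in all 24 MPP, GMP and CLP libraries, in 2 of 8 HSC libraries and in no MEP library (adjusted p = 0.000307 by the exact test, 0.0824 for peaks with a −log10 q of at least 10 and 0.273 for peaks covering 50% of the region).

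Downstream of Runx3, some regions were called in MPPs, GMPs and CLPs but in few or no HSC libraries, as at the P2 promoter. The region 40.5 kb downstream of P2 (chr4:135192724-135193326), intergenic, was called in 0 of 8 HSC and 0 of 4 MEP libraries and in all 24 others. MPP1s had 9.21, 7.84, 5.58 and 5.28, a mean of 6.98 ± 1.88. MPP2s had 11.8 ± 1.28, MPP3s 13.7 ± 3.04, MPP4s 17.2 ± 2.54, CLPs 16.6 ± 3.66 and GMPs 27.8 ± 3.03 (n = 4 each). MPP1s did not overlap with any other fraction that had the region, whereas MPP2s overlapped with MPP3s, MPP3s with MPP4s and MPP4s with CLPs. GMPs lay above all of them without overlap, but set against the library's own median GMPs, at 1.27 to 1.58, overlapped with MPP4s, at 1.15 to 1.55, and with CLPs, at 0.9 to 1.41, while MPP1s, at 0.404 to 0.722, still lay apart. The adjusted p by fraction was 7.15e-06 (exact test), the smallest of the 108 regions tested. A region 51.0 kb downstream showed the same division, with 2 of 8 HSC libraries, at 7.75 and 5.8, and all MPP, GMP and CLP libraries, GMPs at 18.1 to 21.4 (adjusted p = 0.000307, exact test). The adjoining region 53.9 kb downstream did not, since 33 libraries called it, 7 of 8 HSC libraries among them.

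A region of Runx3 found in the lymphoid fraction alone lay in the first intron, 10.7 kb downstream of P1 (chr4:135131162-135131478). CLPs had it at 10.4, 14.7, 11.2 and 13.3, and it was called in 0 of the other 32 libraries (adjusted p = 0.000422, exact test). It was called in all 4 CLP libraries and in no others also at an equal number of peaks. Close by, the region 8.4 kb from P1 (chr4:135128735-135129280) was shared by all fractions but MEPs, with GMPs highest at 17.4, 20.5, 21.4 and 21.7 and CLPs at 5.84 to 8.63.

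Cbfb (ENSMUSG00000031885.14), on the plus strand of chromosome 8, had its single strong region at its promoter (chr8:105170235-105170956). Young HSCs had 12.9, 15.2, 13.4 and 11.7 and aged HSCs 12, 10.6, 12.4 and 11.8. MPPs ranged from 9.78 to 19.4 and CLPs from 10 to 16.1, and GMPs had 17.4, 19.4, 22.3 and 18.1. No MEP library called it (adjusted p = 0.000422, exact test), and at an equal number of peaks 31 libraries, none of MEPs, had it. A weaker intergenic region 17.5 kb upstream of the start site (chr8:105152948-105153365) was called in 4 HSC, 3 MPP1 and 2 MPP2 libraries, at 5.34 to 9.77, and in none of the remaining fractions (adjusted p = 0.036, exact test). The other 2 Cbfb regions, in its first intron, were called in 4 libraries and 1 library.

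**Figure D4:**
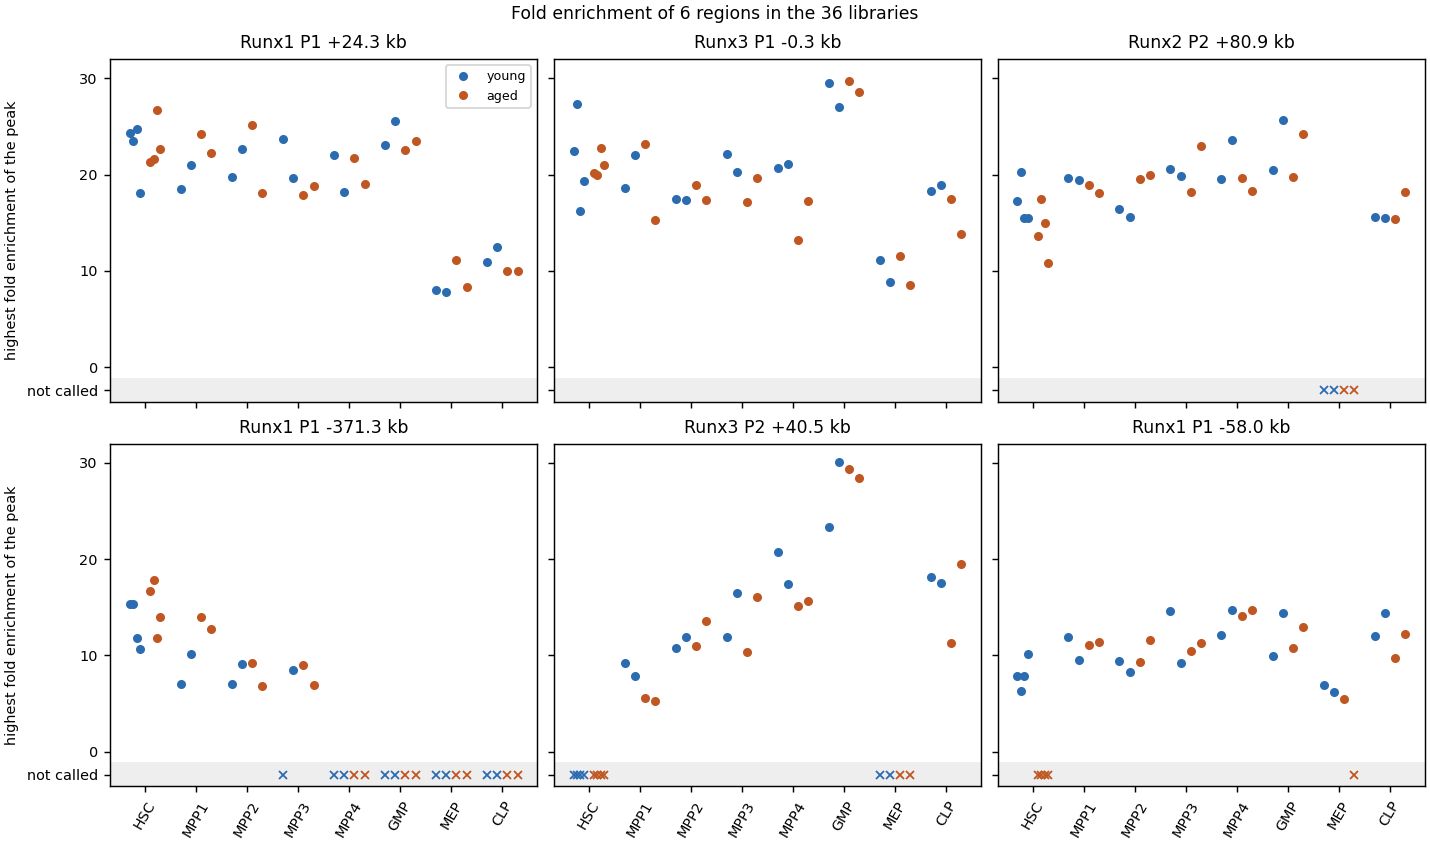
Fold enrichment (y axis) of 6 regions by fraction (x axis), with blue dots for young and orange dots for aged libraries and crosses in the grey band for libraries in which the region was not called. The Runx3 region 40.5 kb downstream of P2 climbs from a mean of 6.98 in MPP1s to 27.8 in GMPs with no call in HSCs, the Runx1 region 371.3 kb upstream is called in HSCs and MPP1s to MPP3s alone, and the Runx1 region 58.0 kb upstream has all 4 young and none of the aged HSC libraries.

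Age, the study's main question, was compared first in HSCs, where 1 Runx region separated the ages. The intergenic region 58.0 kb upstream of Runx1 P1 (chr16:92883808-92884437) was called in all 4 young HSC libraries, at 7.86, 6.29, 7.9 and 10.1, and in none of the 4 aged ones. All other fractions had it at both ages, MPP1s at 9.47 to 11.9, MPP4s at 12.1 to 14.7, GMPs at 9.93 to 14.4 and CLPs at 9.72 to 14.4 among them. The aged HSCs were thus the one group of fraction and age without it. It was 1 of 51 member regions called in any HSC library, while of all 51625 regions called in any HSC library 0.707% were called in every library of 1 age and none of the other, and 0.277% in every young and no aged one. The two-sided Fisher exact test gave p = 0.0286, the smallest that 4 against 4 libraries allow, and an adjusted p of 1. Median levels over called regions in these young libraries were 8.09 to 8.49. The separation was lost for peaks with a −log10 q of at least 10, for peaks covering at least 50% of the region and at an equal number of peaks. Within replicates 1 and 2 alone, 5 of 49 regions separated the ages (7.37% of all), and within replicates 3 and 4 alone, 3 of 37 (10.1% of all).

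The test of age over all fractions found no Runx or Cbfb region, and the test within HSCs could not have found one. With 4 against 4 libraries the smallest possible p, shared by only 1.88% of 19374 regions, does not survive the adjustment. Thus 0 of the 19374 passed, and of the 23 member regions among them 1 had an unadjusted p under 0.05. Over all fractions, with the fraction as stratum, 0 of 109 passed the exact conditional test, as did 0 of all 85292 regions, and 1, again the region 58.0 kb upstream of Runx1, had an unadjusted p under 0.05 (p = 0.0143, 1.37% of those regions). In the other fractions, with 2 libraries per age, 20 of 379 pairs of region and fraction had both libraries of 1 age and neither of the other (4.9% of all pairs), 13 of them aged (2.63%) and 7 young (2.26%). That lean was not stable, with 4 aged and 4 young pairs for peaks with a −log10 q of at least 10, 17 and 5 for peaks covering 50% of the region and 0 and 2 at an equal number of peaks. Among them were the Runx1 P1 promoter in MPP2s, called in both aged libraries at 4.74 and 5.65 and in neither young one, and the region 29.5 kb downstream of Runx3 P2 in MPP1s, called at 13.7 and 8.72 in aged libraries alone. Called in both young MPP1 libraries and neither aged one were the regions 35 kb upstream of Runx3 P1, at 7.58 and 6.54, and 1.6 kb upstream of Runx2 P2, at 5.02 and 5.33. No exact test of 2 against 2 libraries can pass the threshold. In MPP3s and MPP4s the word new stood in the peak names of both aged libraries and of neither young one, so age and that mark cannot be told apart there.

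Levels were compared between the ages at the few regions that were called throughout, and most other member regions were not tested. Of the 10 member regions called in all 24 HSC and MPP libraries, 0 passed limma's test of log2 fold enrichment in HSCs (0.0594% of 13465 regions did), 0 in MPPs (0% of all) and 0 in the comparison of HSCs with MPPs (0% of all). At an unadjusted p under 0.05 these counts were 0, 0 and 1, against 9.41%, 6.64% and 6.75% of the 13465 regions. Within HSC replicates 1 and 2 the unadjusted HSC count was 0 (801 of the 13465), and within replicates 3 and 4 it was 3 (1646 of them). It was 2 without aged HSC replicate 2 (1484 of them) and 0 without any other library. After adjustment 0 member regions passed within either replicate set, against 0 and 51 of the 13465. Fitted on HSC libraries alone, 0 of 14 member regions passed (0 of 17340 in all), and on MPP libraries alone 0 of 18 (1 of 16236 in all). The Runx1 enhancer place changed by 0.06 on the log2 scale from young to aged HSCs, with a 95% interval of -0.22 to 0.33, and Runx3 P1 by 0.02, with an interval of -0.24 to 0.29. Neither direction was stable, since within replicates 1 and 2 the changes were -0.0201 and -0.173, and that of Runx3 P1 was also below 0 under quantile normalization (-0.0332) and without centring (-0.00221). At the Runx2 region 80.9 kb downstream of P2 the aged HSC libraries had a log2 change of -0.26 with an interval of -0.52 to 0.01 (unadjusted p = 0.0569, adjusted p = 0.55), while MPPs had 0.07. The difference between both was -0.33 with an adjusted p of 0.728. With 1 library left out, the change ran from -0.369 to -0.143 in HSCs and from 0.0454 to 0.0993 in MPPs. At the Cbfb promoter the change was -0.16 in HSCs (adjusted p = 0.823) and 0.09 in MPPs. It ran from -0.19 to -0.12 in HSCs and from 0.016 to 0.16 in MPPs with 1 library left out. The widest interval for HSCs among the 10 member regions was that of the Runx3 region 8.4 kb downstream of P1, with a change of -0.39 and an interval of -0.90 to 0.12.

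The words of blood transcription factors were counted within 100 bp of the summit of each member region, as a description without a test. The RUNX word TGTGGT was present in 45 of the 135 regions (33.3%, against 25.6% of all regions), namely in 22 of 65 at Runx1, 12 of 39 at Runx2, 11 of 27 at Runx3 and 0 of 4 at Cbfb. By class it was present in 16 of the 29 regions with other combinations of fractions (55.2%, against 30.6% of all regions of that class) and in 9 of the 37 GMP-only regions (24.3% against 27.7%). It was present in 1 of the 8 regions of HSCs or MPPs alone (12.5% against 25.5%). The regions in all fractions but MEPs had it in 3 of 12 (25% against 27%), and those in no fraction in 11 of 36 (30.6% against 23%). A longer form, AACCACA, which contains the reverse of the shorter word, was present in 14 (10.4% against 11.3%), so the higher share did not extend to it. AP-1 words were present in 23 regions (17% against 11.3%), ETS words in 64 (47.4% against 44.7%), GATA words in 13 (9.63% against 10.3%) and E-boxes in 17 (12.6% against 14.6%). Counted over the whole region, the shares were 40.7% against 35% for the RUNX word, 17.8% against 16% for AP-1 and 52.6% against 57.8% for ETS. The higher share of ETS words near the summit thus did not hold there, and that of AP-1 words was smaller. The CEBP word, that of a factor family central to granulocytes, was present in 22 regions (16.3% against 13.2%), in 11 of the 39 Runx2 regions and in 13 of the 37 GMP-only regions (35.1%, against 25.8% of all 23632 GMP-only regions). It was present in 0 of the 12 regions found in all fractions but MEPs (8.87% of all regions of that class) and in 0 of the 8 found in HSCs or MPPs alone (7.30% of all). The words of STAT, HOX-PBX and IRF factors were present in 10, 2 and 3 regions (7.41%, 1.48% and 2.22%, against 5.68%, 0.881% and 3.89%).

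Genes whose proteins work with RUNX, and genes known to be RUNX targets, were examined through the same regions. The 17 cofactor genes, among them the corepressor genes of the Tle and Cbfa2t families, had 194 regions, of which 102 of 147 tested differed in calls between fractions (69.4%). The target genes had 125 regions at 18 of 19 genes, with no region nearest to Foxp3, and 79 of 103 tested differed (76.7%). Over all regions tested that share was 66.9%. Target regions were called in 22.5% on average in HSC libraries, 65.8% in GMPs and 2.6% in MEPs, and cofactor regions in 29.7%, 52.1% and 9.28%, where all regions had 29.5%, 54.8% and 9.35%. Among targets, Mpo, the gene of myeloperoxidase, went from 0% of its 5 regions in HSCs to 95% in GMPs. Among cofactors, Runx1t1, which encodes a corepressor, ran the other way, from 41.1% of its 21 regions in HSCs over 15.5% in MPP4s to 8.33% in GMPs and 0% in MEPs. No region of either list separated young from aged HSC libraries, as 0.707% of all regions called in HSCs did.

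The profile of a gene, the share of its regions called in a library minus the share of all regions called there, was also compared between genes. The 36 libraries behind each r are common to all genes, so that r is a description. Runx1 and Runx2 ran together with r = 0.68, Runx1 and Runx3 with 0.39 and Runx2 and Runx3 with 0.25. Without subtracting the share of all regions, which carries the number of peaks in each library, these r were 0.95, 0.84 and 0.77. Among 7324 genes with at least 5 regions, the profile most like that of Runx1 was that of Abr (r = 0.89) and the one most like Runx2 that of Map3k20 (0.88). Most like Runx3 were Cd33 (0.85), Ccnd2 (0.84), Dntt (0.83), Gna13 (0.83) and Cds1 (0.83). Cbfb had too few regions for this comparison.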

How the data were processed

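ATAC-seq peak lists of 36 libraries were analysed, 18 per age. Per the labels and the study's methods the authors aligned reads to mm10 with Bowtie2, processed them with SAMtools, subsampled each library to an equal number of reads and called peaks per library with MACS2 2.2.6 at a q of 0.001. The deposited files give each peak a fold enrichment (a ratio to local background), −log10 p and −log10 q values and an integer score, of which the score was not used. Read counts were not used here, so depth behind a value is not known beyond the equal subsampling, and the count model of the study was replaced by tests of calls and of log2 fold enrichment, with no pseudocount.

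Regions were merged, annotated with GENCODE M21 protein-coding start sites on mm10 and tested with numpy 2.4.6, pandas 2.3.3 and scipy 1.17.1 in Python 3.11.15, and with limma 3.58.1 in R 4.3.3. Calls by fraction used an exact permutation test, HSC age calls a two-sided Fisher exact test, age over fractions an exact conditional test stratified by fraction, and levels limma with libraries centred on their median. Benjamini-Hochberg adjustment ran over all regions that could be tested, at a threshold of 0.05. The tests were tried on simulated data. Start sites within 1000 bp were taken as 1 promoter, promoters span 1000 bp upstream to 100 bp downstream, and sequences and words came from the mm10 sequence. Members and lists were chosen with earlier results of these data known. Regions named were those at start sites, the one nearest to 23 kb downstream of Runx1 P1, the 10 with the smallest adjusted p by fraction (ties by the highest median fold enrichment), those passing limma's tests, those separating the ages in HSCs and the leading 1-fraction regions. Other regions with values were chosen after these were seen. Alternatives were peaks with a −log10 q of at least 10, peaks covering 50% of a region, equal peak numbers, other start sites, no MEPs, other scalings, a replicate block and each library left out.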

Additional observations from a re-analysis of the deposited data

Results flagged for a closer look

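The intronic Runx2 region 45.1 kb downstream of P2 (chr17:44690408-44690743) was called in libraries of opposite age in 2 fractions. In MPP4s both young libraries called it, at 7.07 and 5.66, and neither aged library did, while in GMPs both aged libraries called it, at 6.01 and 5.13, and neither young library did. Over all regions 4.9% of the pairs of region and fraction separated the ages in 1 direction or the other. The difference was not tested, and no exact test of 2 against 2 libraries can pass the threshold. Among the other fractions the region was called in 3 of 8 HSC, 1 MPP1 and 2 MPP2 libraries, of both ages. At an equal number of peaks no library called it, so the pattern was lost there. An outlying library was looked for in the 21 groups of 4 HSC libraries with a level of a named region or a count of called regions, and 0 were found, where chance alone gives about 1 in 20.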

How the results depend on the processing

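The number of member regions fell from 135 to 33 at an equal number of peaks per library and to 37 when start sites of all basic transcripts were used in place of protein-coding ones. Calls by fraction passed in 77 regions, in 19 at an equal number of peaks and in 76 to 82 with 1 library left out. The 20 age-separated pairs of region and fraction, of 379, became 8 of 267 for peaks with a −log10 q of at least 10 (10844 of 219291 over all regions) and 2 of 96 at an equal number of peaks (4610 of 91258). The 1 region that separated the ages in HSCs became 0 for peaks with a −log10 q of at least 10, for peaks covering 50% of the region and at an equal number of peaks, 5 and 3 within HSC replicates 1 and 2 and replicates 3 and 4, and 1 to 2 with 1 library left out (2 without young HSC replicate 4). Levels by fraction passed in 2 regions, in 1 under quantile normalization and in 1 to 2 with 1 library left out. The HSC age change of the Runx1 enhancer place turned to -0.0201 in replicates 1 and 2 and ran from -0.00646 to 0.13 with 1 library left out. That of Runx3 P1 turned to -0.00221 without centring, -0.0332 under quantile normalization and -0.173 in replicates 1 and 2, and ran from -0.0754 to 0.108 with 1 library left out, below 0 without young HSC replicate 3 or aged HSC replicate 3 (-0.00109). Neither was past the threshold in any setting, and the causes were not tested. The tests of age over all fractions and of levels found 0 member regions in every setting run, and the Fisher test in HSCs cannot pass the adjustment in any. Same-numbered young and aged libraries deviated together in some pairs and not in others (r of -0.0894 to 0.191 in HSCs, -0.00696 to 0.142 in MPPs). The numbers were therefore not taken to pair the samples, and the fit with the replicate block found 0 member regions by age and the same 2 by fraction. The peak lists limit the values to what passed the caller.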
